A study of Mus musculus with 3 samples.

Results

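The 48 genes described here serve the endoplasmic reticulum (ER) in protein import, folding, sugar attachment, disposal of misfolded proteins and stress signalling. They were taken by gene name from the array files, with all probes of each gene, and make up 48 of the 19434 genes tested. Mouse primary gastric cancers of the diffuse type were compared with normal mucosa on 3 Agilent arrays of 2 colours each. Each array held 1 tumour in red (Cy5) and the same pool of normal gastric mucosa in green (Cy3).

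The 3 tumours came from Atp4b-Cre+;Cdh1loxP/loxP;Trp53loxP/loxP mice aged 12 months. The pool was made from 5 mucosae of Atp4b-Cre-;Cdh1loxP/loxP;Trp53loxP/loxP mice, also aged 12 months, so the floxed alleles of Cdh1 (E-cadherin) and Trp53 (p53) were shared by both groups and Cre was not. The Atp4b promoter drives Cre in parietal cells, the acid-secreting cells of the stomach. For the mucosae, though not for the tumours, the labels describe a mechanical removal of stroma in 30 mM EDTA-2Na. All values below are log2 ratios of tumour over pool unless stated otherwise, so that -1 is a 2-fold lower signal in the tumour. The pool is 1 control sample, and the test of a ratio against 0 therefore leaves out the spread among normal mice.

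Secreted and membrane proteins enter the ER through the Sec61 channel, lose their signal peptide, receive sugar chains and disulfide bonds, and fold with the help of chaperones. When unfolded proteins accumulate, the sensors IRE1, PERK and ATF6 start the unfolded protein response, in which XBP1, ATF4 and ATF6 raise the transcription of chaperone and degradation genes. In the stomach this machinery is abundant in chief cells, which secrete digestive enzyme precursors, and in mucous cells.

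Many genes of this response carry an ER stress response element (ERSE) near their start site, so promoters are shown for members that hold one. The motif searched was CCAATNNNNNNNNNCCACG on both strands, in RefSeq promoters of build GRCm38 that run from 250 bases before to 50 after the start. Promoters were matched for 40 of the 48 members, and 9 of these (22.5%) held an ERSE, against 37 of 27025 genes (0.137%). The related ERSE-II motif, ATTGGNCCACG, was found for Herpud1 and Dnajb11, 2 of 40 members (5.0%), against 12 of 27025 genes (0.0444%). The unfolded protein response element TGACGTGG was in none of the 40 members and in 193 genes (0.714%). The ATF-CHOP element TGATGCAA was in 1 member, Herpud1, and in 279 genes (1.03%). In the stretches below, written 5′ to 3′ along the gene and ending before its start, capitals mark the motif, on either strand. Each holds 1 ERSE, except that Hsp90b1 holds 2 and that Herpud1 holds an ATF-CHOP element followed by an ERSE-II.
Hspa5, chr2:34772000-34772068, plus strand: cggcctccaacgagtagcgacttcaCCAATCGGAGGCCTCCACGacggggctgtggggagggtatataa
Hsp90b1, chr10:86705508-86705681, minus strand: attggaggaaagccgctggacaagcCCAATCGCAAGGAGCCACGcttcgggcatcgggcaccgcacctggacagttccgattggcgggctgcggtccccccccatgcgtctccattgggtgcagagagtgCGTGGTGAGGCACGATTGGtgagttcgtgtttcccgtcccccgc
Calr, chr8:84847050-84847118, minus strand: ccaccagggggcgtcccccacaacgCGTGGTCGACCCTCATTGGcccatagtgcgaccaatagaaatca
Canx, chr11:50325775-50325843, minus strand: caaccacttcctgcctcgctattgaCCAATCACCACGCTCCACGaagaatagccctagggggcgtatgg
Dnajc3, chr14:118937802-118937870, plus strand: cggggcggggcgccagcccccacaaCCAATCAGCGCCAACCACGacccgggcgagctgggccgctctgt
Syvn1, chr19:6046507-6046575, plus strand: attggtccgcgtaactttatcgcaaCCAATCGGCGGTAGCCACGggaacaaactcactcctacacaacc
Ero1lb, chr13:12565657-12565725, plus strand: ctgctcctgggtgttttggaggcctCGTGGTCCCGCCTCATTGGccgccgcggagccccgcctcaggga
Herpud1, chr8:94386292-94386412, plus strand: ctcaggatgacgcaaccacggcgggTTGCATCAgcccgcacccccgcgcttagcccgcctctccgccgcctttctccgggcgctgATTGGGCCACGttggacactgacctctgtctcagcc

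The first 4 of these genes encode the chaperones BiP, GRP94, calreticulin and calnexin. Dnajc3 and Syvn1 encode a co-chaperone and the ubiquitin ligase HRD1, Ero1lb an oxidase, and Herpud1 a degradation factor. Members with an ERSE differed among themselves. Their log2 ratios ran from -1.48 for Ero1lb to 0.37 for Canx, with a median of -0.32 over the 9 members, against a median of -0.51 over the 31 members whose promoters held no ERSE. The other ERSE members were Pdia6 and Creld2. A match describes the letters in this window and is not evidence that a factor binds there.

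In the tumours 6 of the 48 members fell and none rose, where a call required an adjusted p under 0.05 and a difference of at least 2-fold. Those that fell were Pdia2, Creb3l1, Ero1lb, Herpud1, Ssr4 and Xbp1, which belong to different steps of the pathway. Among all 19434 genes 9.68% were called lower and 9.33% higher, so 6 of 48 was close to the share of genes in general. Without the fold requirement 24 members were lower and 2 were higher at an adjusted p under 0.05, against 22.9% of all genes lower and 24.5% higher. Most members thus lay within 2-fold of the pool. The median over the 48 members was -0.45, against 0.05 over all genes, and it was -0.32, -0.55 and -0.50 on the arrays of tumours 1, 2 and 3. On all 3 arrays 33 members (68.8%) were below 0, compared with 34.3% of all genes, whereas 3 members were above 0 on all arrays and 12 had mixed signs. Without tumours 1, 2 and 3 in turn, the median of the members was -0.59, -0.43 and -0.39.

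**Figure D1:**
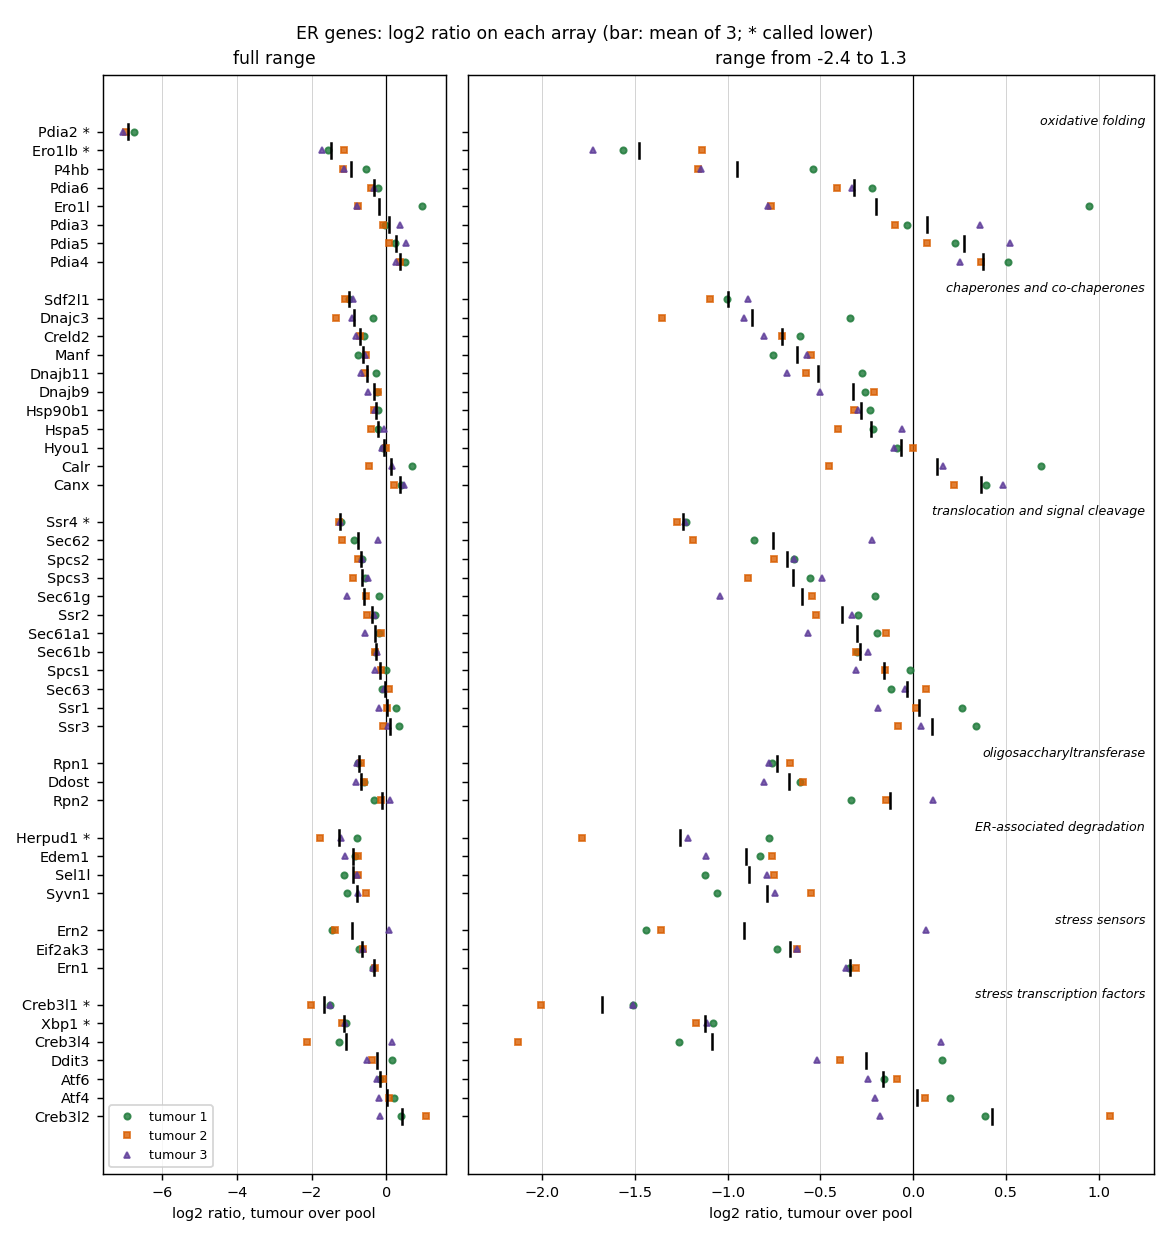
Log2 ratio of tumour over pool (x axis) for each of the 48 ER genes (y axis, grouped by role) after loess normalisation; points are the 3 arrays, bars their means, and asterisks mark the 6 genes called lower. The left panel shows the full range with Pdia2 near -6.93, and the right panel shows that most means lie between -1 and 0. Without loess and with centring on all gene spots, which raised the tested genes in general, 45 of the 48 means were above 0.

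This lower position of the members depended on how the arrays were scaled. Before normalisation the red signal exceeded the green for most genes, by a median log2 ratio that grew from 0.39 among the dimmest of 20 brightness classes of probes to 2.31 among the brightest. Loess sets this trend to 0 at each brightness, and the members had a median of 1.20 before it. With log ratios centred instead on the median of all gene spots, 45 of 48 members were above 0, the median was 0.66, 17 were called higher and only Pdia2 was called lower (39.9% and 2.86% of all genes, respectively). Centring on the tested genes without loess gave a median of -0.10, with 27 members below 0, 3 called lower and none higher (11.0% and 15.9% of all genes). Centring on all gene spots differs from this only by a constant on each array, the same for every gene. It thus raised the tested genes in general along with the members, and did not place the members above other genes. Centring on spike-in control spots gave -0.19, with 30 below 0, 3 called lower and none higher (14.0% and 14.4% of all genes). Agilent's processed signals gave -0.58, with 40 below 0, 9 called lower and none higher (15.8% and 19.2%). The authors' deposited values called 10 members lower and none higher (17.4% and 12.1%), and normexp at offset 0 called 8 and none (13.1% and 16.4%). Pdia2, Ero1lb and Creb3l1 were below 0 under all 13 alternatives run for them, while Xbp1, Ssr4 and Herpud1 changed sign under centring on all gene spots.

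**Figure D2:**
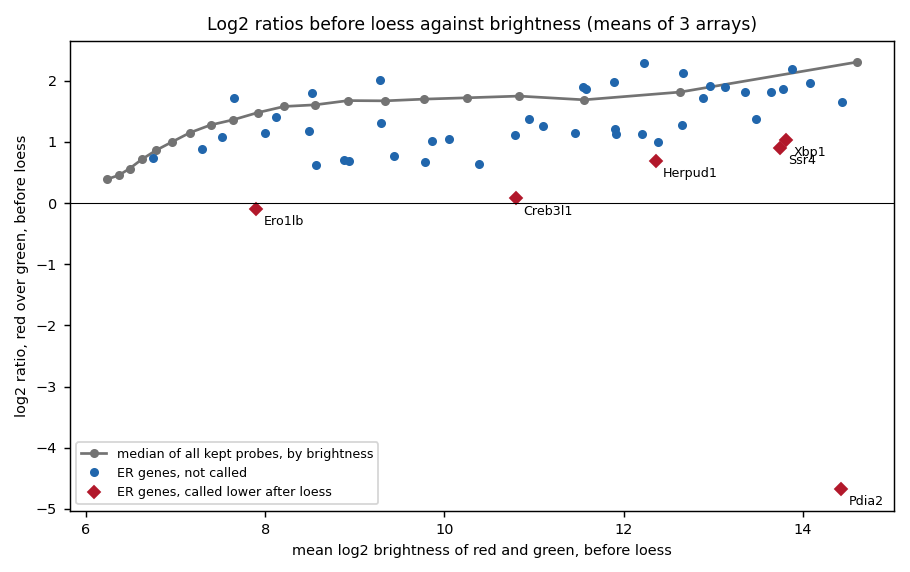
Log2 ratio of red over green before loess (y axis) against mean log2 brightness of both channels (x axis), both as means of the 3 arrays; the grey line joins the medians of 20 classes of kept probes, blue points are ER genes that were not called and red diamonds the 6 called lower after loess. The grey line rises from 0.39 to 2.31, and 5 of the red diamonds lie between -0.09 and 1.04, below the line, with Pdia2 at -4.68.

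**Figure D3:**
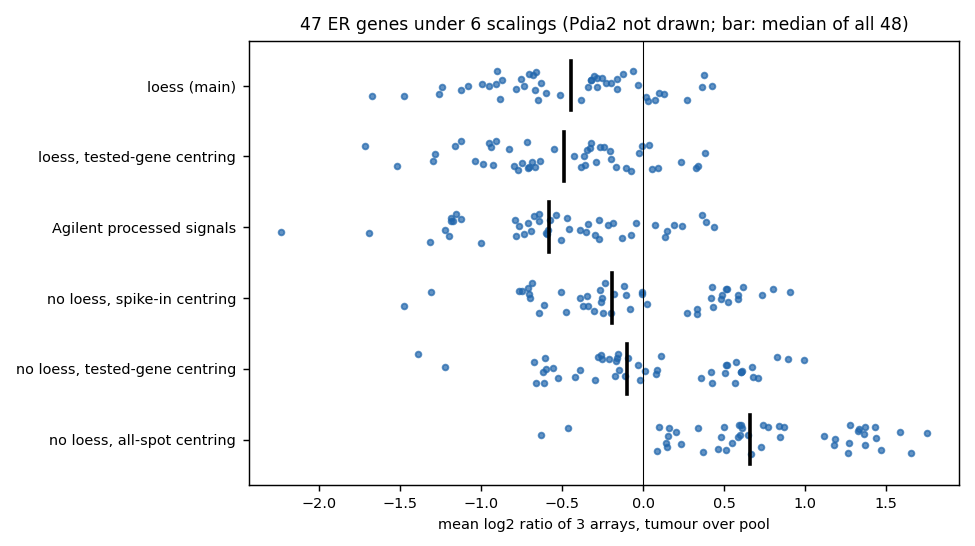
Mean log2 ratios of tumour over pool (x axis) of 47 ER genes under 6 ways of scaling the arrays (y axis); each point is a gene, bars are the medians of all 48, and Pdia2, which was at -5.21 or lower under each, is not drawn. The median moves from -0.45 with loess to 0.66 without loess and with centring on all gene spots.

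The first group makes disulfide bonds. Pdia2, a protein disulfide isomerase known from the pancreas, stood far from the other members. Its log2 ratios were -6.76, -6.98 and -7.05 on the arrays of tumours 1, 2 and 3, all far below 0 and close to each other. It was 122-fold lower in the tumours, at -6.93 ± 0.15 (SD, n = 3; adjusted p = 0.000235). The probe lies at chr17:26332952-26333011 of mm9. The gene's other probe, which overlaps it by 42 bases, gave -6.80. Its log2 signal in the pool was 17.83, 17.91 and 17.95, and in the tumours 11.07, 10.94 and 10.90, which was still well above background. Across the alternatives its ratio ranged from -7.01 to -5.21 and stayed called.

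Ero1lb, now named Ero1b, encodes the oxidase ERO1-beta, which passes oxidising equivalents to the disulfide isomerases and is abundant in secretory cells. Its log2 ratios were -1.56, -1.14 and -1.73, below 0 in every tumour. The mean was -1.48 ± 0.30 (SD, n = 3; adjusted p = 0.0030), a 2.78-fold lower signal, at chr13:12701235-12701294 of mm9. The ratio lay between -2.24 and -0.63 over the alternatives, and the call was lost with centring on all gene spots.

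Ero1l, now Ero1a, encodes the sister oxidase ERO1-alpha, which is known to be induced by hypoxia. It behaved differently from tumour to tumour, with log2 ratios of 0.95, -0.76 and -0.78. Tumour 1 lay above the pool and the other two below it, and the mean of -0.20 ± 0.99 did not pass the test (adjusted p = 0.699). The SD of its red signal was 1.14 log2 units, against 0.16 for the green signal of the pool.

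Of the classical disulfide isomerases, P4hb, which also forms part of prolyl hydroxylase, had ratios of -0.54, -1.16 and -1.14. Its mean of -0.95 ± 0.35 passed the test (adjusted p = 0.0116) but was under 2-fold, and it was called without tumour 1, at -1.15 (adjusted p = 0.00875). Pdia6 was at -0.32 (adjusted p = 0.0467), but its other probe gave -0.076 and the median of both gave -0.20, which did not pass (adjusted p = 0.157). Pdia4 was at 0.38, from 0.51, 0.37 and 0.25 (adjusted p = 0.0369), 1 of 2 members higher at any size. Pdia4 was above 0 under all scalings run, though it did not pass when any 1 tumour was left out (adjusted p = 0.0742 to 0.138). It also did not pass with tested-gene centring after loess, offset 0, processed signals, deposited values or spike-in centring (adjusted p = 0.0502 to 0.115). Without loess it passed on all gene spots (adjusted p = 0.000745) and on the tested genes (adjusted p = 0.00665). Pdia5, at 0.27, and Pdia3, the partner of calnexin and calreticulin, at 0.08, did not pass. The 95% interval of Pdia3 ran from -0.27 to 0.42. The group of 8 had a median of -0.26 with loess, 0.10 without loess on the tested genes and 0.86 on all gene spots.

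None of the 11 chaperones and co-chaperones was called, and their median was -0.32 with loess, -0.02 without loess on the tested genes and 0.74 on all gene spots. Sdf2l1, a partner of BiP complexes, had the largest difference, with -1.0, -1.09 and -0.89. Its mean was -0.996 ± 0.10 (SD, n = 3; adjusted p = 0.00272), and it lay just short of the 2-fold limit. It was called with normexp at offset 0, Agilent's processed signals, the authors' deposited values, tested-gene centring after loess, and without tumour 3. Creld2 (-0.71), Manf (-0.63) and Dnajb11 (-0.51), which encode ER stress-inducible or BiP-assisting proteins, were also lower at an adjusted p under 0.05. So was Dnajc3, also known as P58IPK, at -0.87, though its values of -0.34, -1.35 and -0.91 were spread widely. The call threshold was passed by Dnajc3 without tumour 1, at -1.13 (adjusted p = 0.0162), and its adjusted p rose to 0.0899 without tumour 2 and to 0.128 without tumour 3.

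The main chaperones lay closer to the pool after normexp and loess. Hspa5 (BiP), the master chaperone and the usual readout of the unfolded protein response, had ratios of -0.22, -0.40 and -0.06. Its mean of -0.23 ± 0.17 had a 95% interval from -0.52 to 0.06 and did not pass (adjusted p = 0.148). It was 0.67 without loess on the tested genes and 1.43 with centring on all gene spots, so its sign rested on the loess step. Hsp90b1 (GRP94) was at -0.28 (adjusted p = 0.0547), Dnajb9 at -0.32 and Hyou1 at -0.06, and none of these passed. The Hyou1 probe was dim, with a mean log2 brightness of 6.75 before loess against 14.08 for Hspa5. With offset 0 (-0.12), spike-in centring (-0.64) or all gene spots (0.21) Hyou1 did not pass either. It passed as lower with processed signals (-0.69, adjusted p = 0.0193) and deposited values (-0.69, adjusted p = 0.0124). It also passed on the tested genes without loess, at -0.55 (adjusted p = 0.0165). The 2 lectin chaperones went the other way on average. Canx, calnexin, had 0.39, 0.22 and 0.49, above 0 in each tumour, with a mean of 0.37 (adjusted p = 0.0411). Its value was above 0 under all scalings run, though it did not pass when any 1 tumour was left out (adjusted p = 0.0825 to 0.143). It also did not pass with tested-gene centring after loess, processed signals or deposited values (adjusted p = 0.0551 to 0.103). Canx passed under each centring without loess (adjusted p = 0.000607 to 0.0165). Calr, calreticulin, had 0.69, -0.45 and 0.16, with no common direction.

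Among 12 members for translocation and signal cleavage, Ssr4 fell and no other was called. Ssr4 encodes the delta subunit of the translocon-associated protein complex, which sits beside the Sec61 channel. Its ratios of -1.23, -1.27 and -1.23 were nearly identical in the 3 tumours. The mean was -1.24 ± 0.03 (SD, n = 3; adjusted p = 0.00135), 2.37-fold lower, at chrX:71035700-71035759 of mm9. Its sign turned with centring on all gene spots, to 0.37, and the ratio was -0.39 without loess on the tested genes. The call of Ssr4 held in 10 of 13 alternatives and was lost under each centring without loess, with an adjusted p of 0.226 on spike-in spots. The other subunits of the same complex did not share its size: Ssr2 was at -0.38 (adjusted p = 0.0339), Ssr1 at 0.03 and Ssr3 at 0.10.

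By their brightest probes the 3 subunits of the channel itself did not pass. Sec61a1, the pore subunit, was at -0.30 and Sec61b at -0.29 (adjusted p = 0.0527). The other probe of Sec61b gave -0.49 (adjusted p = 0.0139 over probes), and with the median of its probes the gene passed, at -0.39 (adjusted p = 0.0225). Sec61g had -0.20, -0.55 and -1.04, with a mean of -0.60 (adjusted p = 0.0553). Sec62, which helps short precursors into the channel, was lower at -0.75 ± 0.49 (adjusted p = 0.0419), from -0.86, -1.19 and -0.22, but its dimmer probe gave -0.04. Without tumour 3 it was called, at -1.02 (adjusted p = 0.0270). Its partner Sec63 was at -0.03 ± 0.09. The probe for Sec63 was printed at 10 spots on each array, whose log2 ratios had an SD of 0.05, 0.07 and 0.08 within arrays 1, 2 and 3.

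Of the signal peptidase subunits, Spcs2 (-0.68, adjusted p = 0.00599) and Spcs3 (-0.65, adjusted p = 0.0145) were lower by less than 2-fold, and Spcs1 (-0.16) did not pass. Both probes of Spcs3 gave -0.65, while the other probe of Spcs2 gave -0.41 and did not pass (adjusted p = 0.114 over probes). With the median of its probes Spcs2 passed (adjusted p = 0.0235). Probes also disagreed for Ssr1, where the third probe gave -0.63. The translocation group had a median of -0.34 with loess, 0.24 without loess on the tested genes and 1.00 on all gene spots.

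None of the 3 oligosaccharyltransferase subunits, which belong to the enzyme that attaches N-linked sugars, was called. Rpn1 had the largest difference, with -0.76, -0.66 and -0.77 in the 3 tumours. Its mean was -0.73 ± 0.06 (SD, n = 3; adjusted p = 0.00491). Ddost was at -0.67 (adjusted p = 0.00775), and Rpn2, at -0.12, did not pass. The group median of -0.67 with loess became 0.082 without loess on the tested genes and 0.84 on all gene spots.

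All 4 members of ER-associated degradation were lower at an adjusted p under 0.05, and 1 of them, Herpud1, fell by more than 2-fold. This pathway exports misfolded proteins from the ER for destruction by the proteasome. Herpud1, which organises the ubiquitin ligase complex and is itself a strong stress-response gene, had -0.78, -1.78 and -1.22. The mean was -1.26 ± 0.50 (SD, n = 3; adjusted p = 0.0116), 2.39-fold lower, at chr8:96919117-96919176 of mm9. The call was lost without tumour 2 (-0.997, adjusted p = 0.0285) and without tumour 3 (-1.28, adjusted p = 0.0635). It was also lost under each centring without loess. The ratio was 0.15 on all gene spots, -0.61 on the tested genes (adjusted p = 0.0538) and -0.70 on spike-in spots (adjusted p = 0.0666). The other members of this pathway group lay close together. Edem1, which marks glycoproteins for disposal, was at -0.90 (adjusted p = 0.00538), the scaffold Sel1l at -0.89 (adjusted p = 0.00606) and the ligase Syvn1 at -0.79 (adjusted p = 0.0111). The median of the 4 was -0.89 with loess and -0.60 without loess on the tested genes, and 0.16 on all gene spots.

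Among the 3 sensors, Eif2ak3, which encodes PERK, was at -0.66 ± 0.06 (adjusted p = 0.00633) and Ern1, which encodes IRE1-alpha, at -0.34 ± 0.03 (adjusted p = 0.0333). Neither was called, and for both the 3 tumours lay close together. Ern2 encodes IRE1-beta, the form found in mucus-secreting epithelia, and had the largest difference of the group. Its ratios were -1.44, -1.36 and 0.07. Tumours 1 and 2 lay below the pool and tumour 3 at its level, so that the mean of -0.91 ± 0.85 did not pass (adjusted p = 0.0882). Without tumour 3 the mean was -1.40 and it was called (adjusted p = 0.0134).

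Of the 7 stress transcription factors, Xbp1 and Creb3l1 fell. Xbp1, the factor activated by IRE1 and needed by professional secretory cells, had -1.08, -1.17 and -1.11, at the same level in each tumour. Its mean was -1.12 ± 0.05 (SD, n = 3; adjusted p = 0.00174), 2.18-fold lower, at chr11:5425816-5425875 of mm9. The array does not separate its spliced from its unspliced form. With centring on all gene spots the ratio was 0.50, and it was -0.26 without loess on the tested genes (adjusted p = 0.144). The call held in 9 of 13 alternatives and was lost under each centring without loess, with an adjusted p of 0.397 on spike-in spots.

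Creb3l1, also known as OASIS, is a membrane-bound factor of secretory and matrix-producing cells. Its ratios were -1.51, -2.01 and -1.51, more than 2-fold below the pool in each tumour. The mean was -1.68 ± 0.29 (SD, n = 3; adjusted p = 0.00208), 3.19-fold lower, at chr2:91822506-91822565 of mm9. The ratio remained below 0 under every alternative, between -1.76 and -0.46, and was under 2-fold only with centring on all gene spots.

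The other 2 factors of this family varied between tumours. Creb3l4 had -1.26, -2.13 and 0.15, the widest spread of any member, with a mean of -1.08 ± 1.15 (adjusted p = 0.115). As for Ern2, tumour 3 lay near the pool and the other two below it, and without tumour 3 the mean was -1.70 (adjusted p = 0.0332). Creb3l2 had 0.39, 1.06 and -0.18, with a mean of 0.42 that did not pass (adjusted p = 0.230). Its highest value was in tumour 2, where Creb3l4 was lowest.

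Atf4, Atf6 and Ddit3 (CHOP), further transcription factors of the stress response, did not pass with loess. Atf4 was at 0.02, with a 95% interval from -0.29 to 0.33, and Atf6 at -0.16, from -0.41 to 0.08. Ddit3 had 0.16, -0.39 and -0.52, with an interval from -0.69 to 0.18. These intervals do not cover the spread of the pool among mice or the choice of scaling. Without loess Atf4 was higher, at 1.65 with centring on all gene spots (adjusted p = 0.000627). It was at 0.89 on the tested genes (adjusted p = 0.0036) and 0.80 with spike-in centring (adjusted p = 0.0343). Atf6 (0.55, adjusted p = 0.0158) and Ddit3 (0.61, adjusted p = 0.0272) also passed as higher with centring on all gene spots.

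**Figure D4:**
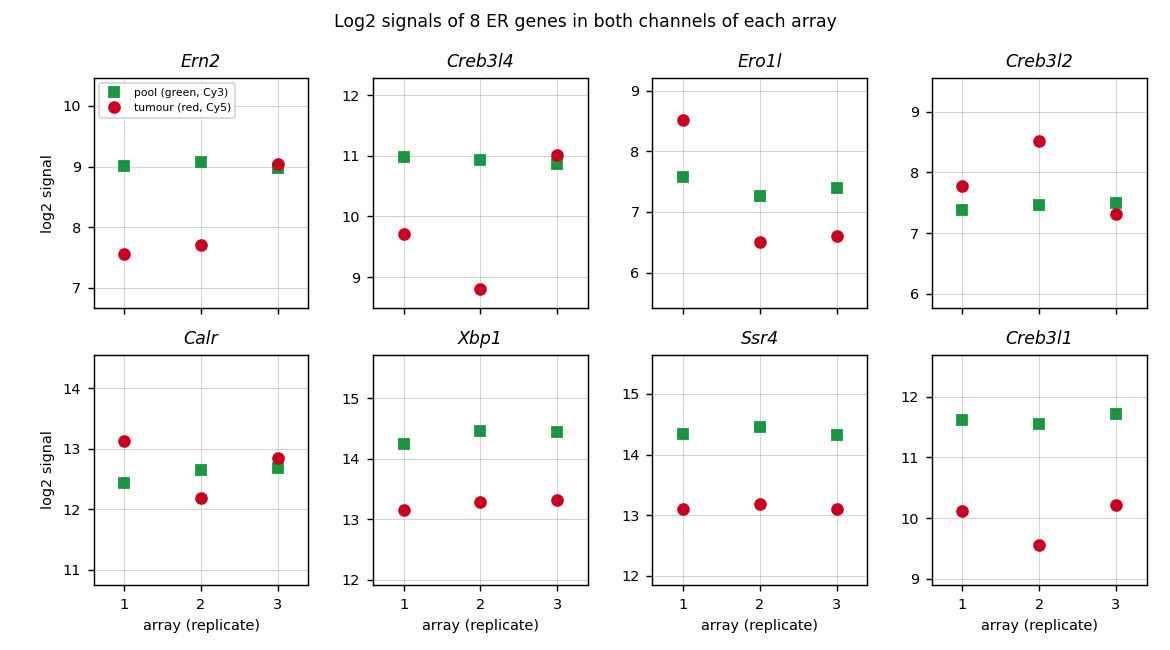
Normalised log2 signal (y axis) of the pool (green squares) and of the tumour (red circles) on each of the 3 arrays (x axis) for 8 ER genes after loess; each panel spans the same number of log2 units. The green squares stay nearly level, while the tumours split for Ern2, Creb3l4, Ero1l and Creb3l2 and lie together for Xbp1 and Ssr4, whose position below the pool turned to above it when arrays were centred on all gene spots.

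The spread between arrays was larger in red than in green, as it was over all probes measured in both channels. For a typical member the pool's green signal varied between arrays with an SD of 0.07 log2 units (median of 48), and the red signal of the tumours with 0.16, against 0.07 and 0.21 over 19185 probes. Dye and tissue cannot be told apart here, and the green signal is 1 pool measured repeatedly. For the log2 ratio the corresponding SD was 0.20, with 36 members under 0.3 and 3 members, Creb3l4, Ero1l and Ern2, at 0.8 or more. The smallest SD was 0.03, for Ssr4. Both channels of every array showed all 48 members well above background, and no spot of theirs was saturated.

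Of 111 further ER genes listed, 102 were tested, of which 15 were called lower and 7 higher, with a median of -0.16 with loess and 0.89 with centring on all gene spots. They split by role. Among 17 further oxidative folding genes, 3 fell and none rose. They were Tmx2 (-2.21, adjusted p = 0.000971) and Tmx4 (-1.55), both membrane-bound thioredoxin-like proteins, and Agr2, a disulfide isomerase of mucous cells (-1.71, adjusted p = 0.0406). Agr2 had -2.35, -2.42 and -0.34, again nearest the pool in tumour 3 like Ern2 and Creb3l4, and was at 0.0013 with centring on all gene spots. Its call was lost without tumour 1 (adjusted p = 0.126) and without tumour 2 (adjusted p = 0.141).

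Among 19 further chaperones, 3 fell and 5 rose. Those that rose included Serpinh1, also called HSP47, the collagen chaperone, with 2.99, 2.15 and 1.12 (mean 2.09, adjusted p = 0.0133), and Fkbp7, a prolyl isomerase, at 1.73. Without tumour 2 Serpinh1 was at 2.06 and was not called (adjusted p = 0.0553). Sil1, the exchange factor of BiP, fell, at -1.61. The summed signal of 9 fibroblast markers was 52124 to 157895 in the tumours and 15753 to 17883 in the pool, with 8 of 9 called higher. Its part in the rise of Serpinh1 was not tested. A removal of stroma is described for the mucosae only, so tissue and preparation cannot be told apart here.

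Among 19 further degradation genes, 2 fell and none rose: Derl3, a derlin of secretory cells, at -2.19, and the lectin Os9 at -1.27. In the translocation list Tram1 fell (-1.02, 1 of 13 genes), and among the sugar transfer genes Magt1 fell (-1.31, 1 of 7). With centring on all gene spots Os9 was at 0.14 and Tram1 at 0.081, and without tumour 3 Tram1 was at -0.94 and not called. Of 27 further stress genes 5 fell and 2 rose. Bhlha15, or MIST1, a factor that shapes secretory cells and acts with Xbp1, was 14.7-fold lower, with -3.94, -3.94 and -3.77 (adjusted p = 0.000306). Nupr1, a stress-induced nuclear protein, was at -3.57, and Asns, asparagine synthetase and a target of ATF4, at -2.04.

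**Figure D5:**
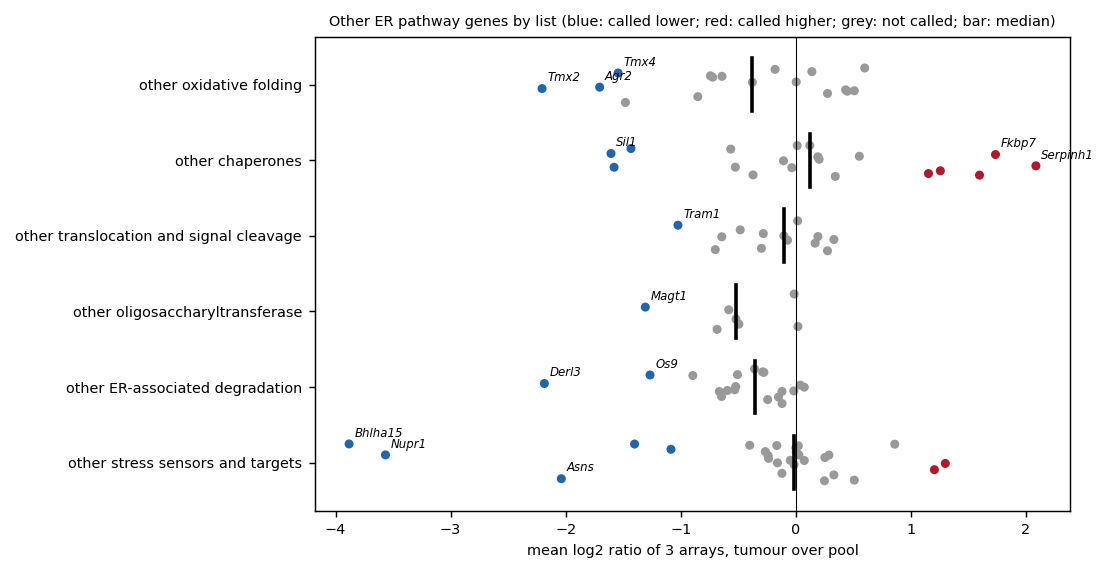
Mean log2 ratio of tumour over pool after loess (x axis) for the 102 further ER genes tested, by list (y axis); blue points were called lower, red higher and grey not called, and bars are list medians. The red points lie in the chaperone and the stress lists, and list medians run from -0.52 to 0.12 with loess but were all above 0 with centring on all gene spots.

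The tissues differed strongly in their cell types, and in bulk RNA fewer cells of a type and less RNA per cell cannot be told apart. Summed signals of 5 chief cell markers were 17707 to 20117 in the tumours and 911577 to 1066068 in the pool, and all 5 were called lower, led by Chia and Gif. All 9 parietal and all 7 pit and neck mucous markers were called lower as well, including Kcne2, Muc5ac and Gkn2. Gif was on both the chief and the parietal list, and Bhlha15 on the chief list and among the further stress genes. Of 9 pancreatic acinar markers 6 were called lower, with sums of 6883 to 7830 and 694440 to 809752 and Amy2a5 and Clps in front. The part of these cells in the ratios of Pdia2, Ero1lb, Xbp1 and the other members was not tested. The pit and neck markers had medians of -3.54, -4.47 and -4.86 on the 3 arrays. Their sums were 85720 to 93393 in the tumours and 1184923 to 1547626 in the pool. Their relation to the ratios of Ern2, Creb3l4 and Agr2 was not tested.

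Many markers of other cells were higher. Of 10 plasma and B cell markers 6 were called higher, with sums of 8672 to 20575 against 3277 to 3611, led by Cd79b and Pou2af1. Macrophage markers were called higher for 7 of 9 (Cd14, Trem2) and neutrophil markers for 5 of 7 (S100a9, S100a8). So were endothelial markers for 3 of 6 (Vwf, Cldn5) and T and NK cell markers for 3 of 6 (Lck, Cd2). In the endothelial and in the T and NK cell list, 1 marker each was lower at an adjusted p under 0.05. The lowest ratios of these lists were -0.76 and -0.65. Lum and Thbs1 led the fibroblast list. Of 6 epithelial markers 3 were called lower, among them Cdh1, and 2 higher, among them Cldn7. As checks of the labels, Cdh1 was at -4.24 ± 0.85 (adjusted p = 0.00186), Atp4b at -6.83 ± 0.14 and Trp53 at -0.21 ± 0.15, which did not pass (adjusted p = 0.161). Trp53 depended on scaling, at -0.91 without loess on the tested genes (adjusted p = 0.00588) and at -0.999 with spike-in centring, under 2-fold in both. Whether these probes lie in the deleted parts is not given in the sources used here. The share of 43020 gene spots well above background was 64.0% to 66.8% in red and 52.5% to 54.2% in green.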

How the data were processed

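RNA of 3 tumours and of 1 pool was hybridised to 3 arrays on 1 slide scanned once, with 250 ng of total RNA and an RNA integrity number above 7, per the labels. Intensity values were deposited as the mean of each spot and the median of its local background. The program was Agilent Feature Extraction, 10.7.3.1 per the file headers but 9.5.3 per the submitters' processing notes. Per the file headers, probe coordinates are mm9 and each spot also has a log10 ratio of red over green. A deposited table of the authors' log2 ratios was also used; its values lay within 0.01 of that ratio on the log2 scale at 99.8% of filled probes and are blank for 48.3% to 49.6%.

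Signals were corrected with normexp (offset 50, which pulls dim ratios towards 0) and loess in limma 3.58.1 under R 4.3.3. Outlier spots (157, 167 and 190 per array) were left out, and spots of a probe averaged. A probe was kept if either colour was well above background on each of the 3 arrays (24164 probes), and the brightest stood for its gene. Names came from a RefSeq table of GRCm38 for 26055 of 39429 probes and otherwise from the files. Member probes numbered 61 (60 kept), and 12 members had several. A two-sided limma test (lmFit, eBayes; 2.45 prior degrees of freedom) compared each mean ratio with 0, and p-values were Benjamini-Hochberg adjusted across the 19434 genes. The procedure was tested on simulated data. With all tumours in red, a dye effect stays in each ratio. The labels call the tumours biological replicates.

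Members and lists were chosen with earlier results of these data known. The text gives every array for called members and, in a role without one, for its largest difference; up to 3 called genes with the largest difference from each further ER list; up to 2 from each marker list; and Cdh1, Trp53 and Atp4b. Other members' arrays are given where tumours or probes differed, chosen after their values were seen. Alternatives changed the scaling, offset, signal, values, filter, probe rule, fold limit and replicates.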

Additional observations from a re-analysis of the deposited data

How the results depend on the processing

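Over 48 members and 13 alternatives, 515 of 624 values kept both their sign and their call, 72 changed sign and 48 changed call, some both. The scaling of the arrays mattered most. Without loess, with each array centred on its median over all gene spots, 8303 genes were called (7747 higher, 556 lower), against 3696 (1814 higher, 1882 lower). Members called were then 1 lower and 17 higher with a median of 0.66, and further ER genes 3 lower and 44 higher with a median of 0.89. Under this centring 36 members changed sign: Pdia6 1.28, P4hb 0.46, Hspa5 1.43, Hsp90b1 1.27, Dnajb9 0.77, Dnajb11 0.73, Dnajc3 0.24, Sdf2l1 0.14, Creld2 0.74, Manf 0.58, Sec61a1 1.18, Sec61b 1.33, Sec61g 1.12, Sec62 0.59, Sec63 0.87, Ssr2 0.84, Ssr4 0.37, Spcs1 1.36, Spcs2 0.60, Spcs3 0.51, Rpn1 0.84, Rpn2 1.37, Ddost 0.67, Herpud1 0.15, Syvn1 0.60, Sel1l 0.16, Edem1 0.15, Ern1 0.65, Eif2ak3 0.48, Xbp1 0.50, Atf6 0.55, Ddit3 0.61, Ero1l 0.34, Hyou1 0.21, Ern2 0.085 and Creb3l4 0.10. So did Agr2 (0.0013), Os9 (0.14) and Tram1 (0.081). Spike-in centring called 2795 genes higher and 3 members lower, with medians of -0.19 for members and 0.036 for further ER genes, and 9 members changed sign: Pdia6 (0.43), Hspa5 (0.59), Hsp90b1 (0.42), Sec61a1 (0.33), Sec61b (0.49), Sec61g (0.27), Sec63 (0.024), Spcs1 (0.51) and Rpn2 (0.52). Centring on the tested genes without loess, added after seeing the data, called 3087 genes higher, 3 members lower and 9 further ER genes lower and 11 higher, with medians of -0.10 and 0.13. Under it 12 members changed sign: Pdia6 (0.52), Hspa5 (0.67), Hsp90b1 (0.51), Sec61a1 (0.42), Sec61b (0.57), Ssr2 (0.084), Spcs1 (0.60), Rpn1 (0.082), Rpn2 (0.61), Dnajb9 (0.010), Sec61g (0.36) and Sec63 (0.11). The centrings without loess differ from each other only by a constant on each array, the same for every gene. The median of all gene spots also includes spots of probes that did not pass the filter. With it the zero lay lower than with the tested genes, for members and other genes alike. The cause of the remaining differences was not tested.

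With normexp at offset 0, 5733 genes were called, 3183 of them higher. Agilent's processed signals called 6817 genes (3738 higher, 3079 lower), with medians of -0.58 for members and -0.27 for further ER genes. The authors' deposited values called 10 members lower, with medians of -0.58 and -0.27. Without the fold limit 9208 genes, 24 members lower and 2 higher passed. Leaving out each tumour in turn gave a members' median from -0.59 to -0.39. Without tumours 1, 2 and 3, 5, 2 and 2 members changed sign and 2, 1 and 5 changed call. No paired analysis was possible because the pool is the only control sample and no control shares a replicate number with a tumour. Only 3 arrays, 1 pool and 1 dye orientation limit the precision, and dim probes have ratios pulled towards 0.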
